A study of Homo sapiens with 101 samples.

Results

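The 10 genes described here were high together on 2 SW480 arrays of the series: DACH1, PCDH19, RASSF6, ROBO1, DNAJC12, CLRN3, KLRC3, SELENOP, SCN3A and ADGRL2. They are 10 of the 19775 genes that the arrays measured with a named probe set. They were chosen by their measured log2 levels, which were high on the replicate 1 SW480 arrays of the MAP2K1 and the MAPK3 knockdown, set against the other 7 SW480 arrays of that replicate, so their levels on those arrays are a description and carry no test. Each gene is read by the probe set of that symbol with the highest mean over all arrays. The labels name no culture state that would bind these genes, and no marker of one was given, so they are called the 10 genes throughout.

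SW480 and SW620 are established colorectal cancer cell lines, SW480 grown out of a primary tumour and SW620 out of a later lymph node metastasis in one patient. Cells carried a short hairpin RNA against CDK5, HRAS, MAP2K1, MAP2K2, MAPK3 or NGFR (written CDK5KD and so on), an empty vector, a hairpin without a target, or no vector, and total RNA was hybridised to Affymetrix arrays. The empty vector and the non-target hairpin are called the vector controls. There are 51 SW480 and 50 SW620 arrays: 6 per line for each treatment, save 5 for CDK5KD in SW620, which has no replicate 1, and 3 per line for non-transduced cells. By their sample names the arrays fall into 4 rounds, which are replicate 1, replicate 2, replicates 3 to 6 and a replicate 7 that holds only non-transduced cells. Whether replicates 3 to 6 were separate cultures is not stated, so p-values measure only the spread between these arrays. The sample labels of HRASKD carry one code in replicate 1 and another in replicates 3 to 6, and what the code stands for is not given.

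The 10 genes have no single pathway in common. ROBO1 is a receptor for the SLIT guidance ligands, PCDH19 a protocadherin of cell adhesion and ADGRL2 an adhesion G protein-coupled receptor of the latrophilin family. CLRN3 is a membrane protein of the clarin family, KLRC3 an NKG2 lectin-like receptor best known from natural killer cells, and SCN3A the pore subunit of a neuronal voltage-gated sodium channel. DACH1 is a nuclear cofactor that works with the EYA phosphatases and their homeobox partners, and RASSF6 is a RAS-association protein tied to the Hippo kinases. SELENOP is the secreted selenium carrier of plasma, made mostly in liver, and DNAJC12 is a co-chaperone of the aromatic amino acid hydroxylases. The knocked-down genes encode a RAS GTPase (HRAS), the MEK kinases (MAP2K1, MAP2K2), an ERK kinase (MAPK3), a kinase best known from neurons (CDK5) and a neurotrophin receptor (NGFR).

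The genes are spread over 9 chromosomes (GRCh38.p14). The surface genes are ROBO1 (chr3:78597239-79767998), PCDH19 (chrX:100291644-100410273) and ADGRL2 (chr1:81306132-81993932). The other membrane genes are CLRN3 (chr10:127877841-127892941), KLRC3 (chr12:10412315-10420595) and SCN3A (chr2:165087526-165204050). DACH1 (chr13:71437966-71867204), RASSF6 (chr4:73571550-73620631), SELENOP (chr5:42799880-42811892) and DNAJC12 (chr10:67796669-67838188) complete the set. Promoter sequences from RefSeq (GRCh38.p14, 300 bases around the start that the table gives for each gene) matched 9 of the 10 symbols, SCN3A being the one without an entry. For ADGRL2 that window (chr1:81800126-81800425) lies inside the gene span, so its motifs and CpGs are those of a start within it. The promoters of DACH1, CLRN3 and SELENOP are shown because these genes stand for a regulator, a membrane protein and a secreted protein that were high on the same arrays and because each holds a motif that was searched. Capitals mark TATAAA or its reverse complement TTTATA in SELENOP and CLRN3, the CDX-type motif TTTATGG in CLRN3, and the TCF/LEF motif CTTTGAT in DACH1.
SELENOP, chr5:42811843-42812142, minus strand: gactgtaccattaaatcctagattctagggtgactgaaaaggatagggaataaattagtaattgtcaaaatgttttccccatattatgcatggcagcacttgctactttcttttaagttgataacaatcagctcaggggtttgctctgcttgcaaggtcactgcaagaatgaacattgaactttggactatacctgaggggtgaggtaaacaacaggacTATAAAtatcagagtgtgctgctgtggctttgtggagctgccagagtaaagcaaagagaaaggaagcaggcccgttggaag
CLRN3, chr10:127892892-127893191, minus strand: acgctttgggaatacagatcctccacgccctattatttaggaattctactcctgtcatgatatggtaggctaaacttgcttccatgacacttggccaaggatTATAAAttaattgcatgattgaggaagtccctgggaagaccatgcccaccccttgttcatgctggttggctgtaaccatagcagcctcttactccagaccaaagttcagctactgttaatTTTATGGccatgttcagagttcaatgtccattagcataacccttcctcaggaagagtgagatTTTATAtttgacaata
DACH1, chr13:71867155-71867454, minus strand: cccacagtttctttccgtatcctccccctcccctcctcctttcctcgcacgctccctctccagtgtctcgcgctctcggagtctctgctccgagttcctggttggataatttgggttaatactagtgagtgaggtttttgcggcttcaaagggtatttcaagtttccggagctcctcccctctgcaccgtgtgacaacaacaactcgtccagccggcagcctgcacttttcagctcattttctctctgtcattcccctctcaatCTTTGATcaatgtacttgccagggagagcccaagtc

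Motifs were searched on both strands of all 27305 promoters. TATAAA was present in 4 of the 9, in SELENOP 31 bases before the start and also in CLRN3, DNAJC12 and KLRC3, and in 11.95% of all promoters. CTTTGAT was present in DACH1 and ADGRL2 and in 2.64% of all promoters, and TTTATGG only in CLRN3 among the 9 and in 2.66% of all. Neither the AP-1 motif TGANTCA (7.76% of all promoters) nor the ETS motif CCGGAAGT (4.44%) was found among the 9, which says only that these letters are not in these windows. Promoters of DNAJC12, KLRC3 and SELENOP held 1 CpG each, CLRN3 2 and RASSF6 4. Up to 5 CpGs were held by 34.41% of all promoters. The promoter of ROBO1 held 11, that of DACH1 12, that of ADGRL2 19 and that of PCDH19 26, against a median of 14 over all promoters.

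Before the members' values, 3 facts of the arrays bear on them. The 90th percentile of an array lay between 8.19 and 8.58 in replicates 1 and 2 but between 8.82 and 8.97 in replicates 3 to 7, so levels are compared within a round. On 50 genes high in SW620 and 50 high in SW480, none of them a member, 3 SW480 arrays lay more than 25% of the way to SW620, namely the replicate 1 arrays of MAP2K1KD (36.5%), MAPK3KD (54.8%) and MAP2K2KD (72.8%), which goes in part against their label. The MAPK3KD array of these did not have less MAPK3 either, with 8.32 against a mean of 8.17 on the vector controls, whereas MAP2K1 was 2.38 lower on its own knockdown array. Degraded RNA, read as a GAPDH 3′ minus 5′ difference over 2, was seen on 3 arrays, all SW620 (MAP2K1KD and MAPK3KD of replicate 2, NGFRKD of replicate 1).

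In replicate 1 the 10 genes were high on 3 of the 9 SW480 arrays and low on 5, with the CDK5KD array between. Their mean log2 level was 8.75 on the MAP2K1KD array, 8.36 on MAPK3KD and 7.39 on MAP2K2KD, then 5.56 on CDK5KD. It was 4.30 on NGFRKD and 3.86 on HRASKD, against 4.02 and 4.17 on the vector controls and 4.12 in non-transduced cells. The MAP2K2KD array did not enter the choice as a high array, and it held 9 of the 10 genes more than 1 above the vector controls, as 3.70% of all genes were. The exception was SCN3A. On the CDK5KD array 7 of the 10 were more than 1 above the vector controls (2.70% of all genes), on NGFRKD 1 (1.02%) and on HRASKD 0 (1.75%). All 10 were so on the MAP2K1KD and MAPK3KD arrays that chose them (2.85% and 2.86% of all genes).

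Among the surface proteins of adhesion and guidance, ROBO1 stood at 10.65 on the MAP2K1KD array and 9.97 on MAPK3KD, against 4.79 to 9.61 on the other 7 SW480 arrays of replicate 1. PCDH19 stood at 10.22 and 9.02 on the same arrays, against 4.50 to 9.23 on the other 7. ADGRL2 stood at 7.36 and 6.67, against 3.60 to 6.11. For each of the 3 genes the top of the other range is the MAP2K2KD array, which for PCDH19 was above the MAPK3KD array.

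CLRN3 reached 8.92 on MAP2K1KD and 9.15 on MAPK3KD, and MAP2K2KD was higher still at 9.53, while 5 of the remaining 6 arrays lay between 3.64 and 4.15 and CDK5KD at 5.58. KLRC3 reached 8.26 and 7.34 on the 2 chosen arrays, 5.72 on MAP2K2KD and at most 4.22 elsewhere. SCN3A reached 6.51 and 7.11 on the chosen arrays, and the next array was CDK5KD at 5.06, with MAP2K2KD at 3.76. SCN3A was thus the member that least followed the other 9 on the MAP2K2KD array.

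DACH1 had 9.01 on MAP2K1KD and 8.62 on MAPK3KD, with CDK5KD (6.75) and MAP2K2KD (6.65) level with each other below them and HRASKD lowest at 3.60. RASSF6 had 9.26 and 9.23 on the chosen arrays and 8.47 on MAP2K2KD, against 3.44 to 5.79 on the other 6. SELENOP had 8.35 and 7.33, then 6.04 on CDK5KD and 5.98 on MAP2K2KD, against 3.17 to 3.76 on the rest. DNAJC12 had 8.96 and 9.14, with 8.81 on MAP2K2KD and 3.91 to 5.13 on the other 6.

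By the smaller of the 2 differences from the mean of the other 7 arrays, RASSF6 (4.65), CLRN3 (4.01), DNAJC12 (3.94) and ROBO1 (3.80) were the first 4 of all genes. DACH1 was number 8, PCDH19 10, KLRC3 12, SELENOP 13, SCN3A 20 and ADGRL2 38, the last with a difference of 2.50. These ranks describe the choice, and 18 genes had a smaller difference over 3 and 74 over 2. Genes in between that are not members include AKR1C3 (3.76), INHBE (3.72), DKK4 (3.54), GPX2 (3.38) and KLRC4 (3.27), and, further down, PPP1R1B, SERPINI1, RAB11FIP2, LPXN and GJA1 (3.11 to 3.00). KLRC3, SELENOP, SCN3A and ADGRL2 are read by probe sets whose suffix marks that they can bind more than 1 transcript, and KLRC4, a relative of KLRC3 in the same family, was high on the same 2 arrays with 6.36 and 6.89 against at most 3.32 on the other 7.

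Set beside SW620 cells of the same round, the levels on the chosen arrays are a description, since the genes were picked for being high there. ROBO1 lay above each of the 8 SW620 arrays of replicate 1 on the MAP2K1KD array only. DACH1, PCDH19, KLRC3, SELENOP, SCN3A and ADGRL2 did so on both chosen arrays. KLRC3 had 8.26 and 7.34 there, against a median of 4.14 and a highest value of 6.22 in SW620. SCN3A had 6.51 and 7.11, against at most 3.86 in SW620, and ADGRL2 7.36 and 6.67, against at most 4.48. RASSF6, DNAJC12 and CLRN3, in contrast, lay within the SW620 range on both arrays. On the MAP2K2KD array DACH1, PCDH19 and ADGRL2 were above all SW620 arrays. How many of all genes lay above SW620 on these arrays was not counted. The part of a mixture with SW620 RNA in these levels was not tested.

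Second probe sets bear on some of these readings. Both other probe sets of DACH1 followed the first, with 8.19 and 7.34 on the MAP2K1KD array against means of 5.27 and 4.31 on the other 7 arrays. A second probe set of RASSF6 (7.99 against 3.87) and one of DNAJC12 (7.71 against 4.99) also followed, and the remaining probe sets of both genes differed less (4.28 against 3.69 and 4.98 against 4.21). The remaining probe sets of SELENOP stood at 4.94 and 3.30 against 4.11 and 3.31, that of SCN3A at 4.24 against 4.37, and that of ADGRL2 at 3.33 against 3.24. For these 3 genes the result rests on 1 probe set, as it does for PCDH19, ROBO1, CLRN3 and KLRC3, which have only 1.

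**Figure D1:**
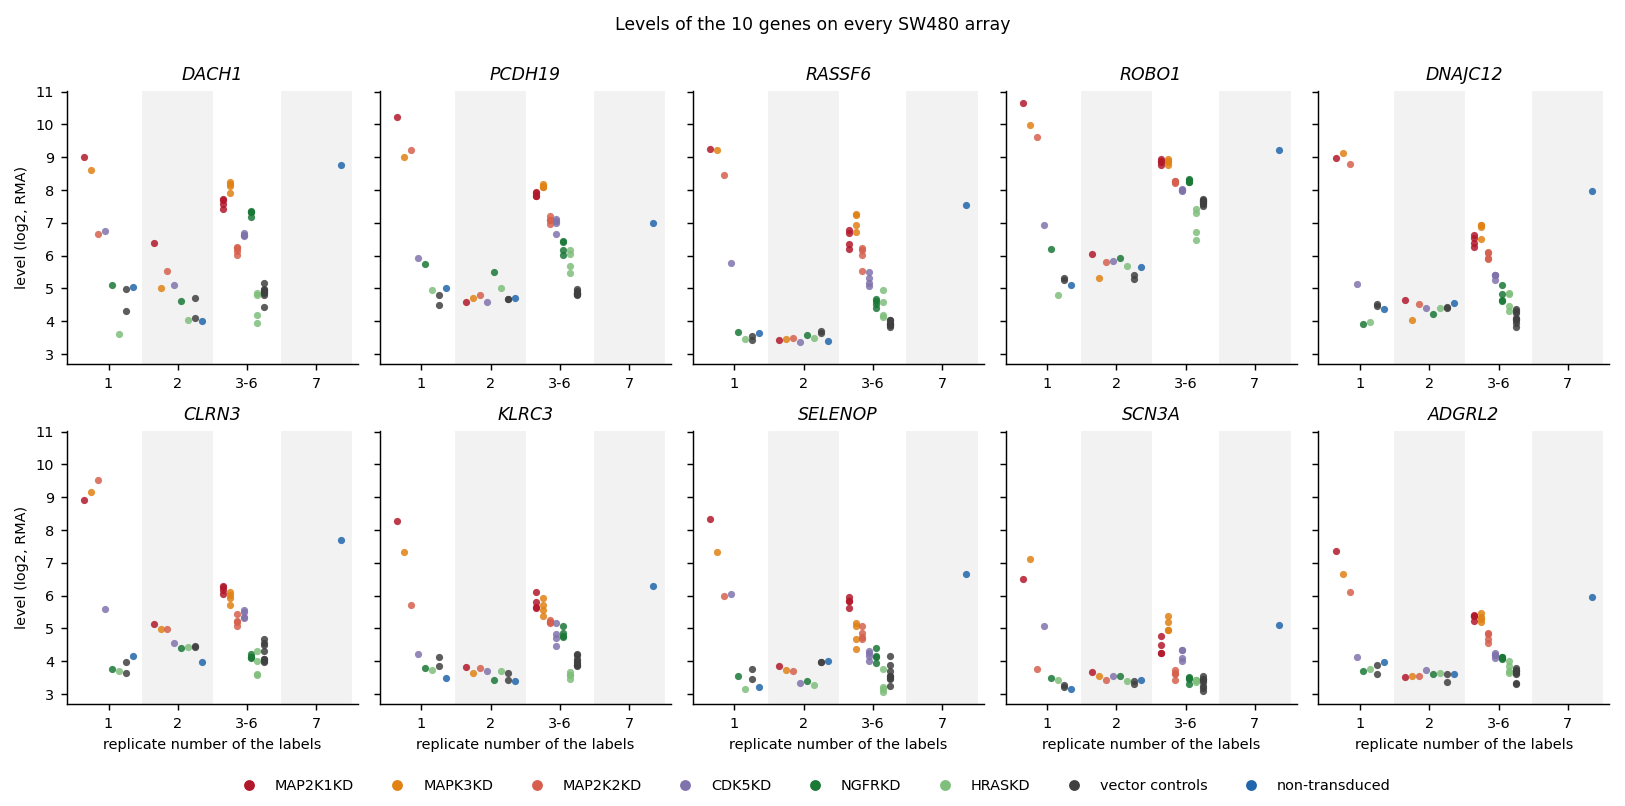
Log2 level (y axis) of each of the 10 genes on every SW480 array, by round (x axis) and treatment (colour); every point is 1 array. In replicate 1 the MAP2K1KD and MAPK3KD arrays stand high, in replicate 2 nearly all arrays stand low, in replicates 3 to 6 all MAP2K1KD and MAPK3KD arrays lie above all vector controls, and the 1 non-transduced array of replicate 7 is high for all 10 genes.

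Replicate 2 did not show the pattern of replicate 1. The mean level of the 10 genes was 4.51 on the MAP2K1KD array, 4.36 on MAP2K2KD and 4.20 on MAPK3KD, against 4.16 and 4.11 on the vector controls. DACH1 differed most, with 6.39 on MAP2K1KD and 5.52 on MAP2K2KD, against 4.72 and 4.09 on the vector controls. It was the 1 member more than 1 above the mean of the controls on those arrays, as 0.652% and 0.784% of all genes were. No other member was so there, and none on the CDK5KD, HRASKD, MAPK3KD and NGFRKD arrays of this round (0.566%, 0.779%, 0.708% and 0.930% of all genes). Smaller differences on the MAP2K1KD array were those of ROBO1, with 6.06 against 5.27 and 5.43 on the controls, and of CLRN3, with 5.14 against 4.45 and 4.43. RASSF6, first of all genes in replicate 1, had 3.43 on MAP2K1KD and 3.45 on MAPK3KD, against 3.65 and 3.71 on the controls. The median difference of the 10 genes from the controls was 0.26 for MAP2K1KD and 0.03 for MAPK3KD, and these arrays lay 1.89% and -2.21% of the way to SW620.

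In replicates 3 to 6 all 10 genes were above every one of the 8 vector control arrays on all 4 MAP2K1KD and all 4 MAPK3KD arrays. Of all genes, 11.1% were so in MAP2K1KD and 10.7% in MAPK3KD. The median difference of the 10 was 2.06 for MAP2K1KD and 1.74 for MAPK3KD, and each member differed by more than 1, as 0.607% and 0.667% of all genes did. These arrays lay 5.49% to 9.81% of the way to SW620. On arrays of whole cultures, more cells with a transcript and more transcript per cell cannot be told apart.

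ROBO1 had 8.89, 8.95, 8.84 and 8.76 on the 4 MAP2K1KD arrays and 8.93, 8.88, 8.85 and 8.77 on MAPK3KD, against 7.52, 7.66 and 7.74 (lowest, median, highest of 8) on the vector controls. PCDH19 had 7.93, 7.90, 7.81 and 7.82 on MAP2K1KD and 8.12, 8.19, 8.10 and 8.09 on MAPK3KD, against 4.80, 4.85 and 5.00. ADGRL2 had 5.38, 5.40, 5.22 and 5.38 on MAP2K1KD and 5.28, 5.36, 5.47 and 5.21 on MAPK3KD, against 3.31, 3.67 and 3.81. For these receptors the knockdown arrays lay close together and apart from the controls. The control level of ROBO1 was itself higher in this round, with a mean of 7.64 against 5.29 and 5.35 in replicates 1 and 2.

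CLRN3 had 6.27, 6.30, 6.17 and 6.06 on MAP2K1KD and 6.10, 5.93, 6.01 and 5.72 on MAPK3KD, against 3.99, 4.19 and 4.68 on the vector controls. KLRC3 had 5.80, 6.11, 5.63 and 5.65 on MAP2K1KD and 5.92, 5.56, 5.70 and 5.39 on MAPK3KD, against 3.84, 3.98 and 4.23. SCN3A had 4.25, 4.77, 4.24 and 4.49 on MAP2K1KD and 5.19, 5.37, 4.95 and 4.96 on MAPK3KD, against 3.09, 3.40 and 3.54. SCN3A was higher on every MAPK3KD array than on any MAP2K1KD array, while the arrays of both knockdowns overlapped for CLRN3 and KLRC3.

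DACH1 had 7.70, 7.72, 7.57 and 7.42 on MAP2K1KD and 8.25, 8.18, 8.13 and 7.90 on MAPK3KD, against 4.44, 4.92 and 5.16 on the vector controls. RASSF6 had 6.69, 6.77, 6.19 and 6.36 on MAP2K1KD and 7.23, 7.26, 6.94 and 6.74 on MAPK3KD, against 3.84, 3.92 and 4.03. Both the nuclear cofactor and the RAS-association gene thus separated from the controls by more than 2 on every array, and DACH1 was higher in MAPK3KD without overlap. SELENOP had 5.84, 5.97, 5.84 and 5.63 on MAP2K1KD and 5.16, 4.66, 5.08 and 4.39 on MAPK3KD, against 3.23, 3.55 and 4.16. DNAJC12 had 6.52, 6.62, 6.40 and 6.27 on MAP2K1KD and 6.93, 6.88, 6.93 and 6.52 on MAPK3KD, against 3.83, 4.08 and 4.39. SELENOP was the reverse of DACH1, higher on every MAP2K1KD array than on any MAPK3KD array.

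The tests leave out replicate 1, which chose the genes. Over replicates 2 to 6, fitted with limma over all 19775 genes with a term for round, all 10 genes rose in MAP2K1KD SW480 cells (adjusted p under 0.05), where 5.00% of all genes rose. All 10 also rose in MAPK3KD SW480 cells, where 6.85% of all genes rose. The knocked-down genes themselves changed by -1.16 ± 0.08 (MAP2K1 in MAP2K1KD) and by -0.41 ± 0.06 (MAPK3 in MAPK3KD). Both comparisons share the vector control arrays. The members had also been among the large rises of the MAP2K1 knockdown in an earlier look at these arrays, so these tests are not wholly independent of the choice.

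In MAP2K1KD cells the log2 change was largest for DACH1 (2.58 ± 0.20, SE, adjusted p = 3.84e-16), followed by PCDH19 (2.37 ± 0.26) and RASSF6 (2.01 ± 0.24). DNAJC12 (1.92 ± 0.20), SELENOP (1.73 ± 0.21), CLRN3 (1.68 ± 0.15), KLRC3 (1.49 ± 0.18) and ADGRL2 (1.40 ± 0.16) followed. ROBO1 (1.12 ± 0.16) and SCN3A (0.93 ± 0.19, adjusted p = 0.000366) changed least. In MAPK3KD cells the order began alike, with DACH1 (2.71 ± 0.20, adjusted p = 1.65e-17), PCDH19 (2.60 ± 0.26) and RASSF6 (2.44 ± 0.24), and DNAJC12 rose by 2.09 ± 0.20. SCN3A rose by 1.45 ± 0.19 there, CLRN3 by 1.44 ± 0.15, ADGRL2 by 1.39 ± 0.16, KLRC3 by 1.33 ± 0.18, ROBO1 by 0.97 ± 0.16 and SELENOP by 0.91 ± 0.21 (adjusted p = 0.00067).

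The median difference of the 10 genes in replicate 2, given above, was far below that in replicates 3 to 6 for both knockdowns. If replicates 3 to 6 are averaged into 1 value per group, so that replicate 2 weighs as much as they do, limma calls 0 of the 10 genes in MAP2K1KD and 0 in MAPK3KD SW480 cells, of 0.00% and 0.147% of all genes called. The 10 log2 changes were all positive, the smallest being 0.70 ± 0.44 for SCN3A in MAP2K1KD and 0.47 ± 0.46 for SELENOP in MAPK3KD. The change of DACH1 was then 2.36 ± 0.46 in MAP2K1KD (adjusted p = 0.111) and 1.92 ± 0.46 in MAPK3KD (adjusted p = 0.168), and that of RASSF6 1.16 ± 0.57 and 1.44 ± 0.57.

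**Figure D2:**
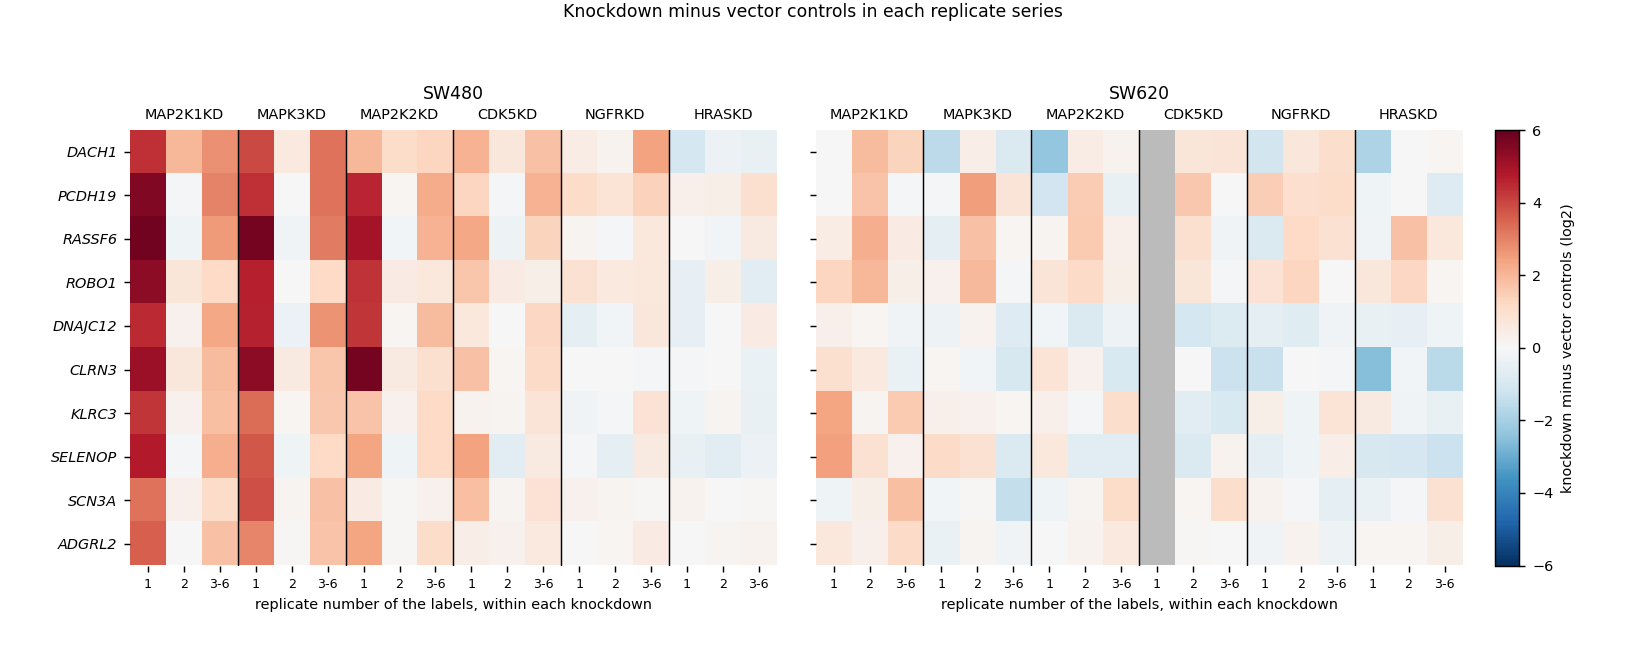
Knockdown minus the mean of the vector controls (log2, colour scale) for each gene (rows) by knockdown and round (columns), in SW480 (left) and SW620 (right); CDK5KD SW620 has no replicate 1 (grey). In SW480, replicate 1 and replicates 3 to 6 of MAP2K1KD, MAPK3KD and MAP2K2KD are red for nearly all genes and replicate 2 is pale, while in SW620 rows differ in sign.

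Fewer of the 10 genes passed the same tests in the other 4 knockdowns. In MAP2K2KD SW480 cells 9 of the 10 genes rose (3.27% of all genes rose), led by PCDH19 (1.79 ± 0.26), RASSF6 (1.62 ± 0.24) and DNAJC12 (1.54 ± 0.20), and SCN3A did not pass the test (0.22 ± 0.19, adjusted p = 0.586). In CDK5KD cells 8 rose (5.90% of all genes), with PCDH19 (1.65 ± 0.26) and DACH1 (1.55 ± 0.20) first, and ROBO1 (0.38 ± 0.16) and SELENOP (0.32 ± 0.21) did not pass. In NGFRKD cells 6 rose (16.0% of all genes), with DACH1 at 1.99 ± 0.20 and PCDH19 at 1.28 ± 0.26, while CLRN3 (-0.12 ± 0.15) and SCN3A (0.11 ± 0.19) lay near 0. In HRASKD cells 1 rose (11.5% of all genes) and 1 fell (18.0%), PCDH19 with 0.85 ± 0.26 and ROBO1 with -0.46 ± 0.16 (adjusted p = 0.0098 and 0.0241). All 6 comparisons share their controls. With replicates 3 to 6 averaged into 1, limma called 0 of the 10 in each of these 4, of 0.00506% (MAP2K2KD), 0.0354% (CDK5KD), 1.57% (NGFRKD) and 1.30% (HRASKD) of all genes called. The change of DACH1 was then 1.20 ± 0.46 in MAP2K2KD, 1.23 ± 0.46 in CDK5KD, 1.33 ± 0.46 in NGFRKD and -0.39 ± 0.46 in HRASKD. That of RASSF6 was 0.94 ± 0.57, 0.52 ± 0.57, 0.26 ± 0.57 and 0.17 ± 0.57.

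By arrays of replicates 3 to 6, all 4 MAP2K2KD arrays lay above all 8 vector controls for 9 of the 10 genes (10.2% of all genes) and all CDK5KD arrays for 9 (9.69%). NGFRKD arrays did so for 7 (18.4%) and HRASKD arrays for 2 (6.53%). For 2 other genes, ROBO1 and KLRC3, all HRASKD arrays lay below all controls, as they did for 14.3% of all genes. More than 1 above the controls were 7 genes in MAP2K2KD (0.349% of all genes), 5 in CDK5KD (0.384%), 2 in NGFRKD (1.67%) and 0 in HRASKD (0.238%).

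The order was not the same for every member. In replicates 3 to 6 DACH1 averaged 7.31 ± 0.08 in NGFRKD cells (SD, n = 4), above CDK5KD (6.64 ± 0.04) and MAP2K2KD (6.17 ± 0.11) without overlap of arrays. For PCDH19 the order was the other way, with MAP2K2KD at 7.08 ± 0.09 and CDK5KD at 6.96 ± 0.20, which overlapped, above NGFRKD at 6.26 ± 0.20. For SCN3A, MAP2K2KD, NGFRKD and HRASKD overlapped with the empty vector, and only MAPK3KD, MAP2K1KD and CDK5KD stood above all controls. KLRC3 and CLRN3 averaged lower in HRASKD (3.58 and 3.88) than in either vector control, which their tests did not call. The HRASKD group also had the widest spread for DACH1, PCDH19, RASSF6, ROBO1, DNAJC12 and CLRN3 (SD 0.28 to 0.46), where the median SD of a group was 0.03 to 0.09 for these genes. DACH1 had 3.93 and 4.19 in HRASKD cells of replicates 3 and 4, whose GAPDH 3′ minus 5′ difference was 1.39 and 1.47. In replicates 5 and 6 DACH1 had 4.80 and 4.88, at a GAPDH difference of 0.41 and 0.32. The part of RNA quality in that spread was not tested.

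Non-transduced SW480 cells, which carried neither vector nor hairpin, held the 10 genes low in 2 rounds and high in the third. The mean of the 10 was 4.12 in replicate 1 and 4.08 in replicate 2, within 0.2 of the vector controls of the same round, but 7.22 in replicate 7. All 10 genes were more than 1 above the higher of the 2 earlier arrays, as 16.4% of all genes were. The median of that difference over all genes was -0.09. RASSF6 stood at 7.56 in replicate 7, against 3.65 and 3.41 in replicates 1 and 2, DACH1 at 8.77 against 5.04 and 4.02, and ROBO1 at 9.22 against 5.10 and 5.65. CLRN3 (7.68 against 4.15 and 3.99) and DNAJC12 (7.98 against 4.36 and 4.55) were alike, and SCN3A differed least (5.09 against 3.15 and 3.44).

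The 90th percentile of the replicate 7 array (8.96) lay among those of replicates 3 to 6, and there the 8 vector controls averaged 3.93 for RASSF6, 4.88 for DACH1 and 4.28 for CLRN3. For 8 of the 10 genes the MAP2K1KD and MAPK3KD arrays of replicates 3 to 6 all lay below the non-transduced array of replicate 7. The exceptions were SCN3A, where it lay within their range, and PCDH19 (7.01), where it lay below them. How many of all genes were likewise highest on the replicate 7 array was not counted. That array lay 10.2% of the way to SW620. It stands alone, without a vector control of its own round and without a replicate, and no test was made. The part of transduction, of time in culture or of the state of the stock was not tested. The SW620 array of replicate 7 was lower than the SW480 array for KLRC3 (4.99 in SW620, 6.28 in SW480), SCN3A (3.74 in SW620, 5.09 in SW480) and ADGRL2 (4.76 in SW620, 5.96 in SW480) and higher for the other 7.

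SW620 held most of the 10 genes high without any knockdown. In replicates 3 to 6 the SW620 minus SW480 difference of the vector control means had a median of 3.20 over the 10 genes. It ran from 1.30 to 6.23. DNAJC12 had 10.29, 10.33 and 10.43 (lowest, median, highest) in SW620 and 3.83, 4.08 and 4.39 in SW480, and RASSF6 had 10.11, 10.15 and 10.25 in SW620 and 3.84, 3.92 and 4.03 in SW480. ADGRL2 differed least, with 4.66, 4.89 and 5.12 in SW620 and 3.31, 3.67 and 3.81 in SW480.

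Between the lines, SW620 minus SW480 over replicates 2 to 6, all 10 genes were higher in SW620 by the limma test, as 26.4% of all genes were. The difference was 6.26 ± 0.17 for DNAJC12, 5.76 ± 0.21 for RASSF6 and 5.67 ± 0.13 for CLRN3, then 3.57 ± 0.14 for ROBO1, 3.15 ± 0.23 for PCDH19 and 3.02 ± 0.18 for SELENOP. DACH1 (1.61 ± 0.18), KLRC3 (1.20 ± 0.16), SCN3A (1.14 ± 0.17) and ADGRL2 (0.99 ± 0.14) differed less. All 10 calls held with replicates 3 to 6 averaged into 1, where 24.3% of all genes were called in either direction. The small differences depended on the round: in replicate 1, KLRC3 averaged 3.83 in SW620 and 3.99 in SW480 vector controls, and ADGRL2 3.84 in SW620 and 3.75 in SW480, both with overlap. DACH1 averaged 5.93 in SW620 and 4.65 in SW480 in replicate 1, 4.61 in SW620 and 4.41 in SW480 in replicate 2, but 7.26 in SW620 and 4.88 in SW480 in replicates 3 to 6.

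The non-transduced SW620 arrays moved between rounds in the same direction as those of SW480 but less. Their mean over the 10 genes was 6.74 and 6.42 in replicates 1 and 2 and 7.98 in replicate 7. SELENOP (7.48 against 4.13 and 5.21) and DACH1 (8.83 against 6.64 and 5.67) differed by more than 2 from the higher earlier array, whereas SCN3A (3.74 against 3.68 and 3.52) differed by 0.06. The mean of the 10 on SW620 vector controls was 6.62 and 6.54 in replicate 1 and 6.31 and 6.33 in replicate 2. It was 7.99 to 8.11 in replicates 3 to 6, so the vector controls moved between rounds too.

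Knockdowns in SW620 did not move the 10 genes as a block. In MAP2K1KD SW620 cells 6 rose (16.0% of all genes rose) and none fell (15.4% fell): SCN3A by 1.52 ± 0.19, DACH1 by 1.45 ± 0.20, KLRC3 by 1.30 ± 0.18, ADGRL2 by 0.98 ± 0.16, RASSF6 by 0.84 ± 0.24 and ROBO1 by 0.68 ± 0.16. In MAPK3KD SW620 cells 1 rose (19.7% of all genes) and 5 fell (22.8%), PCDH19 with 1.12 ± 0.26 and SCN3A, CLRN3, DACH1, DNAJC12 and SELENOP with -1.15 ± 0.19, -0.82 ± 0.15, -0.61 ± 0.20, -0.56 ± 0.20 and -0.53 ± 0.21. SCN3A thus had 7.32, 7.10, 7.34 and 7.36 on the MAP2K1KD arrays of replicates 3 to 6 and 4.13, 3.88, 3.97 and 4.08 on MAPK3KD, on either side of the vector controls (5.27 to 5.64). The replicate 2 SW620 arrays of both knockdowns are degraded ones, and without degraded arrays 34 in place of 31 pairs of gene and knockdown passed in SW620 over all 6 knockdowns.

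In MAP2K2KD SW620 cells 4 genes rose (17.1% of all genes) and 2 fell (19.7%), in CDK5KD 2 rose (16.5%) and 3 fell (19.1%), in HRASKD 2 rose (17.9%) and 2 fell (21.1%), and in NGFRKD 4 rose (14.3%) and none fell (17.5%). HRAS itself did not pass the limma test in HRASKD SW620 cells (-0.49 ± 0.26, adjusted p = 0.131). CLRN3 fell in 4 of the 6, most in HRASKD (-1.31 ± 0.15) and CDK5KD (-1.03 ± 0.15). SELENOP fell in HRASKD by 1.22 ± 0.21 on the log2 scale, with 6.24 to 6.57 on the 4 arrays of replicates 3 to 6 against 7.49 to 7.91 on the controls. With replicates 3 to 6 averaged into 1, limma kept 1 of these 31 calls in SW620, DACH1 in MAP2K1KD (1.62 ± 0.46, adjusted p = 0.0415), where 7.43% of all genes were called.

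The change of a knockdown in SW480 minus that in SW620, tested in the same model, was positive for all 10 genes in MAPK3KD (14.1% of all genes), from 0.62 ± 0.23 for ROBO1 to 3.32 ± 0.29 for DACH1. For MAP2K1KD it was called for 6 genes, all positive (11.0% of all genes): PCDH19 (2.08 ± 0.37), DNAJC12 (2.06 ± 0.28), CLRN3 (1.88 ± 0.22), SELENOP (1.34 ± 0.29), RASSF6 (1.17 ± 0.34) and DACH1 (1.13 ± 0.29). KLRC3 (0.19 ± 0.26), ADGRL2 (0.42 ± 0.22), ROBO1 (0.43 ± 0.23) and SCN3A (-0.58 ± 0.27) did not pass there. It was called for 7 genes in MAP2K2KD, 6 higher and 1 lower (12.6% and 11.7% of all genes), and for 6 in CDK5KD, all higher (13.9%). It was called for 5 in HRASKD, 4 higher and 1 lower (14.3% and 15.2%), and for 3 in NGFRKD, all higher (16.1%). With replicates 3 to 6 averaged, none of these differences passed in any knockdown, where 0.0152% (MAP2K1KD) to 0.470% (NGFRKD) of all genes were called.

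**Figure D3:**
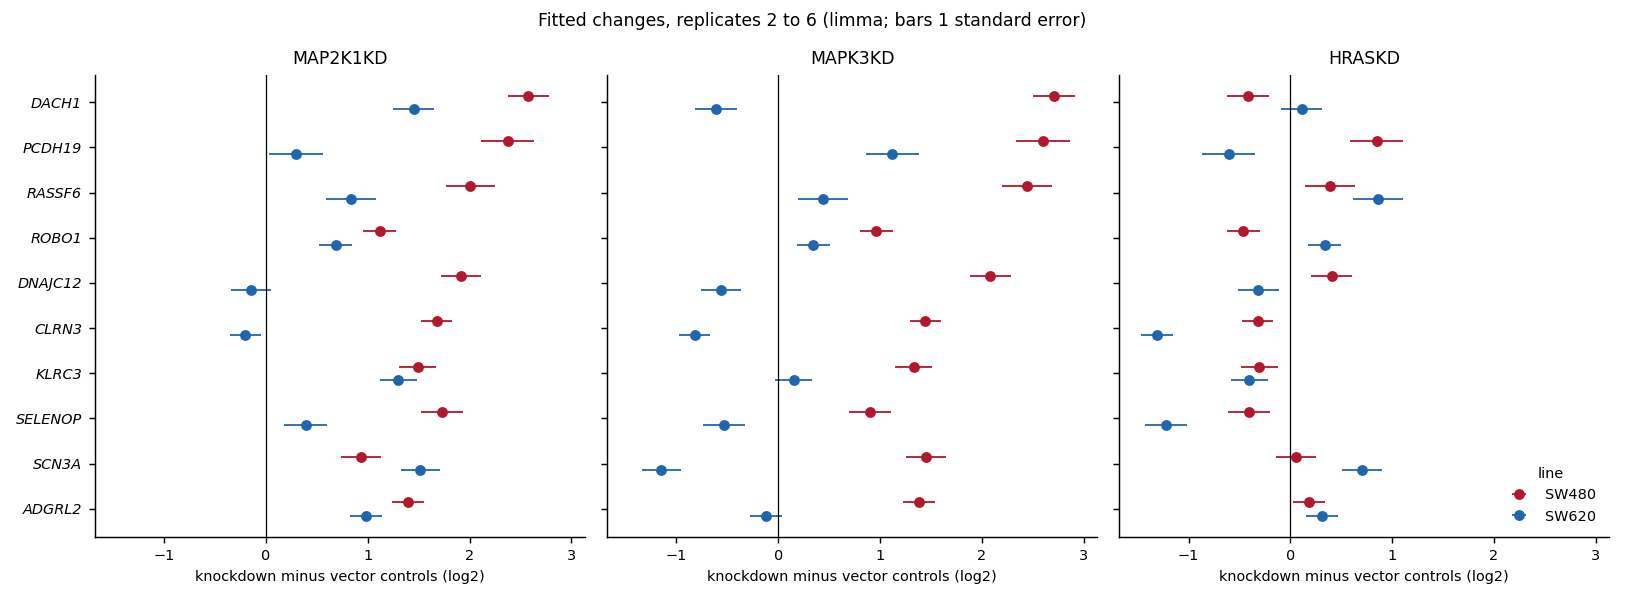
Fitted log2 change against the vector controls (x axis; bars are 1 SE) of each gene (y axis) in MAP2K1KD, MAPK3KD and HRASKD cells, in SW480 (red) and SW620 (blue), from replicates 2 to 6. In MAPK3KD all 10 SW480 values lie to the right of the SW620 values, in MAP2K1KD SCN3A does not, and in HRASKD both lines scatter around 0.

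The 10 genes ran together over SW480 arrays and less evenly over SW620 arrays. Over the 41 SW480 arrays of replicates 2 to 6, each gene's Pearson r with the mean of the other 9 was between 0.78 for ROBO1 and 0.96 for RASSF6 and ADGRL2. Over the 41 SW620 arrays it was 0.21 for CLRN3, 0.41 for PCDH19 and 0.53 for DNAJC12, and at most 0.88, for DACH1 and SELENOP. The arrays share rounds and treatments, so these values are a description. The non-member genes most like the mean of the 10 over the SW480 arrays were ASPRV1 and BMP2 (r = 0.95), SEMA3A (0.93), and POU2AF1 and CDH12 (0.92).

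BMP2, a secreted growth factor of the TGF-beta family, averaged 7.62 in MAP2K1KD and 7.39 in MAPK3KD SW480 cells of replicates 3 to 6, against 4.03 on the vector controls. It rose by 2.86 ± 0.23 in MAP2K1KD and by 2.67 ± 0.23 in MAPK3KD cells over replicates 2 to 6. On the non-transduced SW480 arrays it stood at 7.04 in replicate 7, against 4.40 and 4.20 in replicates 1 and 2. SEMA3A, a secreted guidance ligand, rose by 1.66 ± 0.17 and 1.49 ± 0.17. The least like were UCA1 and EZH1 (r = -0.81), TMEM115 (-0.80), BORCS6 (-0.79) and CLDN15 (-0.78). UCA1, a long noncoding RNA, fell by 0.87 and by 1.43 on the log2 scale in MAP2K1KD and MAPK3KD cells. BMP2, SEMA3A and UCA1 were picked by their r over the SW480 arrays of replicates 2 to 6, which include these knockdown arrays. Their fitted changes there follow in part from that choice, so they are a description and carry no test.

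Relatives and partners of the 10 genes were read by the same limma tests over replicates 2 to 6. Of all genes 5.00% rose and 5.43% fell in MAP2K1KD SW480 cells, and 6.85% rose and 9.25% fell in MAPK3KD. Of 14 other measured genes of SLIT and ROBO guidance, 1 rose and 1 fell in MAP2K1KD SW480 cells, and 3 rose and 1 fell in MAPK3KD. ROBO2, the sister receptor of ROBO1, rose by 1.09 and 0.76, the ligand gene SLIT1 fell by 0.56 in MAP2K1KD, and NTN1 fell by 0.34 in MAPK3KD. Of 10 latrophilins and ligands, 3 rose in MAP2K1KD and 2 in MAPK3KD, among them the teneurins TENM2 (0.86 and 1.03) and TENM3 (0.76 and 0.50) and, in MAP2K1KD, FLRT3 (0.83). Of 9 other protocadherins none rose in MAP2K1KD, and PCDH9 (0.77) and PCDH7 (0.22) rose in MAPK3KD.

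Of 3 other measured genes of the NKG2 receptors, their partner and their ligand, KLRC4 rose in both knockdowns (0.61 and 0.57). Of 11 other sodium channel genes none changed in MAP2K1KD, while SCN4B fell by 0.87 and SCN9A rose by 0.17 in MAPK3KD. The 1 other measured clarin changed in neither. Of 10 genes of the DACH and EYA network, EYA2 and EYA3 fell in MAP2K1KD (-0.29 and -0.23), and EYA1 rose and EYA3 fell in MAPK3KD (0.25 and -0.44).

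Of 16 RASSF and Hippo genes, 2 rose in MAP2K1KD, and 2 rose and 3 fell in MAPK3KD. RASSF4 rose in both (0.65 and 0.66), and the Hippo kinase gene STK4 fell by 0.48 and RASSF2 by 0.53 in MAPK3KD. Of 27 genes of selenoproteins and their synthesis 4 rose and none fell in each, led by the glutathione peroxidase genes GPX2 (1.55 and 1.88) and GPX3 (0.69 and 0.71). LRP8, a receptor that takes up selenoprotein P, rose by 0.58 in MAP2K1KD. Of 8 genes around the aromatic amino acid hydroxylases, the clients of DNAJC12, none changed in MAP2K1KD, and TH (-1.42) and QDPR (-0.43) fell in MAPK3KD. Of 18 genes that report MAPK output 1 rose and 1 fell in each, with DUSP4 higher in both (0.50 and 0.78).

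The median of each of these lists of relatives, partners and MAPK output lay between -0.04 and 0.20 in both knockdowns, against -0.01 and 0.01 over all genes.

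Markers of other cell types were measured because KLRC3 and SCN3A are best known from other tissues. Of 11 lymphocyte and natural killer markers none changed in MAP2K1KD or MAPK3KD SW480 cells, and of 9 neuronal and neuroendocrine markers none did. Mean levels of the lymphocyte list were 5.79 to 5.81 on the 2 chosen replicate 1 arrays and 5.69 to 5.96 on the other 7. NKG7 stood at 4.82 and 4.70 on the chosen arrays and at 4.44 to 4.88 on the other 7. CD3D stood at 6.89 on both, above the 6.39 to 6.59 of the other 7, and PRF1 at 9.33 and 8.47, below the 9.38 to 11.38 of the other 7.

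Of 13 colon epithelium markers 5 rose in MAP2K1KD and 4 in MAPK3KD, and VIL1, which encodes villin of the brush border, rose by 0.95 and 1.00. The median change of this list was 0.32 in MAP2K1KD and 0.22 in MAPK3KD SW480 cells, against -0.01 and 0.01 over all genes. On the chosen arrays VIL1 stood at 9.60 and 10.12, above the 5.15 to 9.02 of the other 7. EPCAM (at least 11.87, against 8.76 to 11.79) and LGALS4 (5.05 and 4.96, against 4.17 to 4.86) were also above the other 7 on both, but KRT19 was below them with 10.72 and 11.23 against 11.41 to 11.88. CDX2 stood at 6.79 and 7.01, the first below the 6.96 to 7.41 of the other 7. Of 9 mesenchymal markers 4 fell in MAP2K1KD (ZEB1 by 0.83, AXL by 0.72, VIM by 0.58 and FN1 by 0.57) and ZEB1 by 0.33 in MAPK3KD. VIM stood at 9.70 and 10.09 on the chosen arrays, below the 10.67 to 12.71 of the other 7.

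Of 6 Paneth cell markers 2 rose in MAP2K1KD and 1 in MAPK3KD, with the defensin gene DEFA5 at 2.24 and 1.47. Of 9 fibroblast markers none changed in MAP2K1KD, and LUM (1.13) and THY1 (0.22) rose in MAPK3KD. Of the fibroblast list, LUM also stood at 6.32 and 6.00 on the chosen replicate 1 arrays, above the 2.93 to 5.83 of the other 7. So did COL1A1 (8.27 and 8.47, against 7.94 to 8.18) and, by little on MAP2K1KD, DCN (6.62 and 6.88, against 5.76 to 6.60). COL1A2, PDGFRB, PDGFRA, THY1 and POSTN lay within the range of the other 7 on both. COL3A1 (4.03 and 4.33, against 4.13 to 4.31) lay below that range on MAP2K1KD and just above it on MAPK3KD. LUM averaged 8.99 on SW620 vector controls of replicates 3 to 6. The part of these markers in the levels of the 10 genes was not tested.

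The mean of the 10 genes can be set beside the place of an array between the lines, as a description, since the replicate 1 values of MAP2K1KD and MAPK3KD chose the genes. On the replicate 1 arrays the mean was 8.75 at 36.5% of the way to SW620 on MAP2K1KD, 8.36 at 54.8% on MAPK3KD and 7.39 at 72.8% on MAP2K2KD. The non-transduced replicate 7 array had 7.22 at 10.2%, and the CDK5KD array of replicate 1 had 5.56 at 11.8%. On the genes high in SW620 alone they lay at 20.1% and 14.5%. By both gene sets together, NGFRKD arrays of replicates 3 to 6 lay at 9.65% to 10.4% and MAPK3KD arrays at 8.35% to 9.81%. The 10 genes were higher on the MAPK3KD arrays. On the genes high in SW620 alone, NGFRKD arrays lay at 8.38% to 8.88% and MAPK3KD arrays farther, at 10.15% to 13.07%. On the genes high in SW480 alone the order was the other way, with NGFRKD at 10.96% to 11.98% and MAPK3KD at 5.90% to 6.64%. The part of this place in the levels of the 10 genes was not tested.

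**Figure D4:**
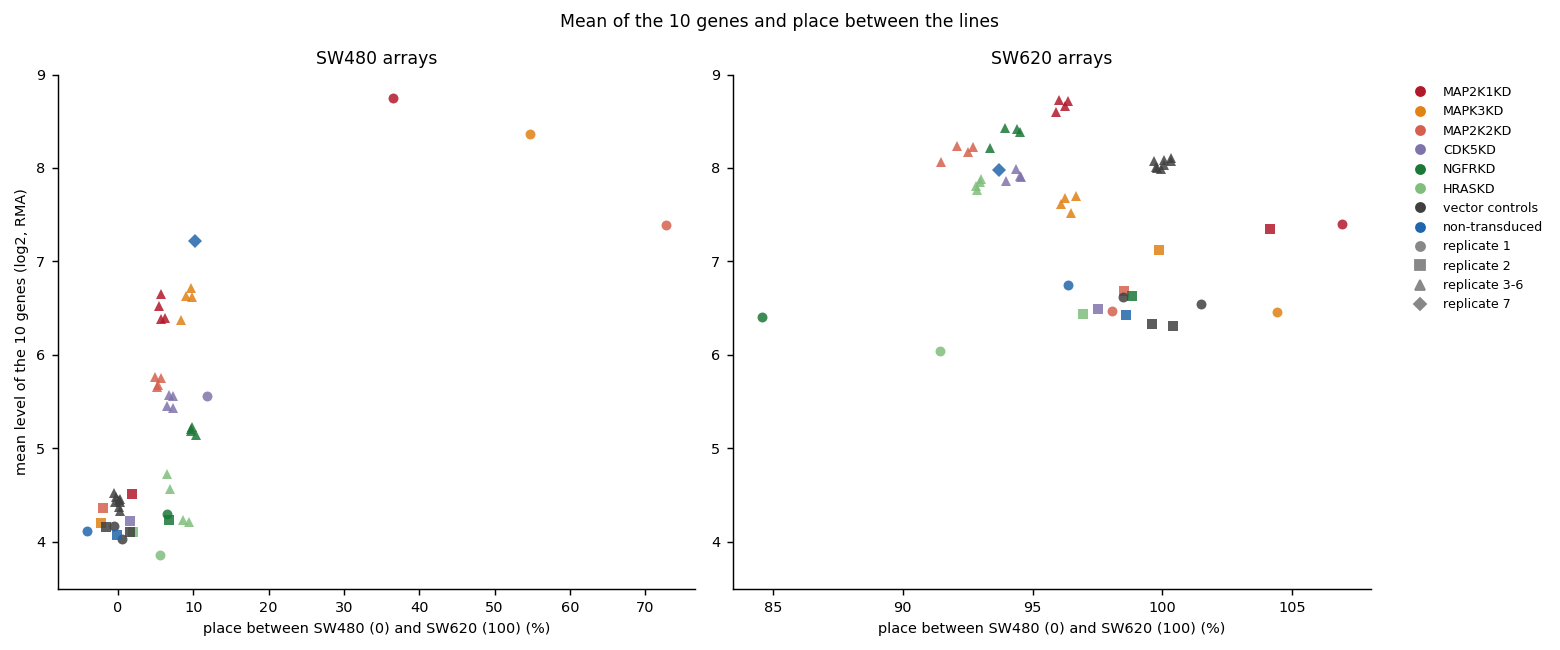
Mean log2 level of the 10 genes (y axis) against the place of each array between the SW480 (0%) and SW620 (100%) vector controls of its round (x axis; those of replicates 3 to 6 for replicate 7), coloured by treatment and marked by replicate, with 1 panel per line. In the SW480 panel the 3 arrays past 25% have means of 7.39 to 8.75, and the replicate 7 array reaches 7.22 at 10.2%.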

How the data were processed

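The authors deposited log2 expression values of 101 Affymetrix HG-U133 Plus 2 arrays, made by RMA per the submitters' processing notes, which give no version. Every column of the 101 arrays matched a sample title and 0 were left out. Titles number the last non-transduced array 7 where another field has 4, and the titles were followed. Of 54675 probe sets 41097 name 1 gene in the platform annotation, 1801 several and 11777 none, which left 19775 genes, each read by its probe set with the highest mean. The number of arrays limits the precision.

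The 10 genes, the lists and the tests were chosen with earlier results of these data known. Named are the 10 genes, the knocked-down genes where results turn on them, the 10 other genes that led the choice, the 5 most and 5 least like the mean of the 10, listed genes past the threshold (at most 4 a list) and defining markers.

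One limma fit (R 4.3.3 and limma 3.58.1) took the 80 arrays of replicates 2 to 6 with a vector or hairpin, in 16 groups, with a term for round and line and 62 residual degrees of freedom. P-values were adjusted over all genes of a comparison by Benjamini and Hochberg, with a threshold of 0.05. The fit was tested on simulated data with independent noise on each array and the same change on every array of a group. That test cannot speak to a change that differs between rounds or to arrays that share a culture. Samples of the same number in different groups did not deviate together (112 pairs per line, median r of -0.02 in SW480 and 0.00 in SW620), so no block was used. That check cannot show whether arrays of the same group share a culture, and the fit counts them as separate. Alternatives varied the rounds, controls, probe sets, normalisation and arrays. Values were prepared with Python 3.11.15, pandas 2.3.3 and numpy 2.4.6, and plots with matplotlib 3.10.9.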

Additional observations from a re-analysis of the deposited data

Results flagged for a closer look

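For each gene, the 16 groups of treatment and line with 5 or 6 arrays were searched for an array whose gap to its nearest neighbour was large against the range of the group (Dixon's test at 95%). Of 160 such groups 33 held one. Chance flags about 1 in 20 groups of like arrays, but these groups pool rounds on 2 scales and include the replicate 1 arrays that chose the genes, so the count is a description. Of the 33 arrays 13 were of replicate 1, 19 of replicate 2 and 1 of replicates 3 to 6. Replicates 1 and 2 have a single array per group.

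DACH1 stood apart with 5.11 on the CDK5KD SW480 array of replicate 2 (low), 5.36 on the CDK5KD SW620 array of replicate 2 (low), 5.00 on the MAPK3KD SW480 array of replicate 2 (low) and 4.31 on the empty vector SW480 array of replicate 1 (low). PCDH19 stood apart with 6.90 on the MAP2K1KD SW620 array of replicate 1 (low), 5.76 on the MAP2K2KD SW620 array of replicate 1 (low), 4.70 on the MAPK3KD SW480 array of replicate 2 (low) and 6.82 on the MAPK3KD SW620 array of replicate 1 (low). RASSF6 stood apart with 3.38 on the CDK5KD SW480 array of replicate 2 (low) and 8.54 on the CDK5KD SW620 array of replicate 2 (low). ROBO1 stood apart with 9.29 on the CDK5KD SW620 array of replicate 2 (low), 5.82 on the MAP2K2KD SW480 array of replicate 2 (low), 5.32 on the MAPK3KD SW480 array of replicate 2 (low) and 9.14 on the MAPK3KD SW620 array of replicate 1 (low). DNAJC12 stood apart with 4.41 on the CDK5KD SW480 array of replicate 2 (low), 8.97 on the CDK5KD SW620 array of replicate 2 (low), 8.81 on the MAP2K2KD SW480 array of replicate 1 (high) and 10.21 on the MAPK3KD SW620 array of replicate 2 (high). CLRN3 stood apart with 4.56 on the CDK5KD SW480 array of replicate 2 (low), 9.34 on the CDK5KD SW620 array of replicate 2 (high), 6.74 on the HRASKD SW620 array of replicate 1 (low), 8.92 on the MAP2K1KD SW480 array of replicate 1 (high), 9.53 on the MAP2K2KD SW480 array of replicate 1 (high), 9.15 on the MAPK3KD SW480 array of replicate 1 (high), 9.44 on the MAPK3KD SW620 array of replicate 1 (high) and 7.99 on the NGFRKD SW620 array of replicate 1 (low). KLRC3 stood apart with 4.31 on the MAP2K1KD SW620 array of replicate 2 (low) and 3.81 on the MAP2K2KD SW480 array of replicate 2 (low). SELENOP stood apart with 6.04 on the CDK5KD SW480 array of replicate 1 (high), 4.40 on the CDK5KD SW620 array of replicate 2 (low) and 3.75 on the HRASKD SW480 array of replicate 6 (high). SCN3A stood apart with 3.60 on the CDK5KD SW620 array of replicate 2 (low). ADGRL2 stood apart with 3.73 on the CDK5KD SW480 array of replicate 2 (low).

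The change of a knockdown against the vector controls differed between the lines, tested as SW480 change minus SW620 change in the limma fit, for 37 of 60 pairs of gene and knockdown. A positive value means that the change was more positive in SW480. In MAP2K1KD cells the difference was 1.13 for DACH1, 2.08 for PCDH19, 1.17 for RASSF6, 2.06 for DNAJC12, 1.88 for CLRN3 and 1.34 for SELENOP. In MAPK3KD cells the difference was 3.32 for DACH1, 1.48 for PCDH19, 2.00 for RASSF6, 0.62 for ROBO1, 2.65 for DNAJC12, 2.26 for CLRN3, 1.18 for KLRC3, 1.43 for SELENOP, 2.60 for SCN3A and 1.51 for ADGRL2. In MAP2K2KD cells the difference was 1.01 for DACH1, 1.83 for PCDH19, 1.08 for RASSF6, 1.97 for DNAJC12, 1.55 for CLRN3, 1.56 for SELENOP and -0.71 for SCN3A. In CDK5KD cells the difference was 0.77 for DACH1, 1.35 for PCDH19, 0.97 for RASSF6, 1.88 for DNAJC12, 1.98 for CLRN3 and 1.53 for KLRC3. In HRASKD cells the difference was 1.45 for PCDH19, -0.80 for ROBO1, 0.72 for DNAJC12, 0.99 for CLRN3 and 0.81 for SELENOP. In NGFRKD cells the difference was 1.00 for DACH1, 0.81 for DNAJC12 and 0.61 for ADGRL2.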

How the results depend on the processing

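The counts of the 10 genes past the threshold were recomputed under 19 other settings. In MAP2K1KD SW480 cells the count of 10 became 0 with replicates 3 to 6 averaged into 1, a setting chosen after seeing the data. In MAPK3KD SW480 cells it became 6 without a term for round and 0 with replicates 3 to 6 averaged. In 1 setting arrays were averaged in pairs, replicate 3 with 4 and replicate 5 with 6 of each group. The number of pairs of gene and knockdown past the threshold in SW480 was 45 in the fit as reported. It was 22 without the term for round, 19 with arrays averaged in pairs and 0 with replicates 3 to 6 averaged. For SW620 the 31 pairs became 9 without the term for round, 17 over all replicates, 14 with arrays averaged in pairs and 1 with replicates 3 to 6 averaged. The averaged settings hold fewer samples by construction. Averaging replicates 3 to 6 into 1 also gives replicate 2 as much weight as they have. The changes of the 10 genes in MAP2K1KD and MAPK3KD SW480 cells were then smaller too. That of RASSF6 in MAP2K1KD was 1.16 ± 0.57 in place of 2.01 ± 0.24. The cause of the lost calls was not tested in any setting.

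Leaving out 1 replicate at a time gave 35 to 56 pairs in SW480, 26 to 44 in SW620 and 10 genes in each other count. With the replicate number as a block, the pairing check having found no shared deviation, the counts were 10 for MAP2K1KD, 10 for MAPK3KD, 10 between the lines, 44 pairs in SW480 and 31 in SW620. Over 30 single changes, 532 of 561 recomputed values kept their direction and side of the threshold, 29 lost the threshold and 0 turned sign. Of the 29, 20 came with replicates 3 to 6 averaged, and they are all 10 genes in both knockdowns. Without the term for round limma lost ROBO1 (adjusted p = 0.534) and SCN3A (0.613) in MAP2K1KD, and ROBO1 (0.556), KLRC3 (0.0615), SELENOP (0.518) and SCN3A (0.0509) in MAPK3KD. With arrays averaged in pairs it lost SCN3A in MAP2K1KD (adjusted p = 0.245), and ROBO1 (0.0829) and SELENOP (0.265) in MAPK3KD. The planned setting without arrays toward the other line was not run, since none of them is in the fit, and the filter on dim genes leaves out KLRC3, SCN3A and ADGRL2. The main limits are that 1 array per group stands for replicates 1, 2 and 7, that replicates 3 to 6 may share cultures, and that 7 of the 10 genes rest on 1 probe set.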
